A study of Vitis vinifera with 36 samples.

Results

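The comparison described here sets the winter crop against the summer crop of “CS” (Cabernet Sauvignon, a red wine grape) at the onset of veraison, the stage at which berries soften and begin to colour, which is E-L 35 on the Eichhorn-Lorenz scale of grapevine development. It was chosen by crop, cultivar and stage in the sample labels and takes 6 of the 36 RNA-seq libraries of the series, 3 from each crop. The whole series covers “CS” and “Riesling” (a white wine grape) in both crops at E-L 35, E-L 36 (the end of veraison) and E-L 38 (harvest), which makes 12 conditions. The berries sequenced were those of 2014.

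The winter and the summer group had the cultivar, the vineyard, the rootstock (SO4), the vine age of 7 years and the rain shelter in common. The winter crop came from vines that had borne the summer crop, were pruned a second time in August, stripped of leaves and forced with hydrogen cyanamide, a bud-breaking agent, which was put on the terminal bud and around the pruning wound. The summer crop came from pruning in mid-February and the same agent at 2.5 to 3.0%, with the terminal bud left unsprayed. Each library was made from 50 berries of a biological replicate, pooled and freed of seeds, so that it holds skin and flesh together. The p-values and SEs below come from a joint fit of all 36 libraries. They measure a spread between replicates estimated over all 12 conditions, not in these 6 libraries alone. This is the spread between such pools only where each library is a separate pool. Season, calendar time, weather, pruning and the order of the crops all change with the group and cannot be told apart. In pooled pericarp, fewer cells of a type and less RNA per cell cannot be told apart either.

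Ripening of the grape berry is non-climacteric, which means that it runs without a burst of respiration and ethylene of the kind seen in tomato. At veraison abscisic acid (ABA) rises, sugars accumulate, organic acids fall, and in red cultivars the skin begins to make anthocyanins, while auxin, made and sensed mostly in the green berry, delays the change. Transcripts of a large part of the genome change level around this time.

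The 3 winter libraries held 11637236, 9896930 and 11320896 expected counts (reads assigned to genes), and the 3 summer libraries 26261045, 11251972 and 28686956. A gene with 3 counts in a library, the largest count treated as a floor below, stood at 0.258 to 0.303 CPM (counts scaled to the library total) in the winter libraries and at 0.105 to 0.267 CPM in the summer libraries, for counting error only. Correlations across genes of log2(CPM + 1) were 0.9872 to 0.9936 between winter libraries, 0.977 to 0.9958 between summer libraries and 0.9522 to 0.9562 between the crops. Summer replicate 1 stood apart. It held 117 genes at 1 CPM or more and at 10 times or more of the level in both other summer libraries, against 2 to 4 such genes in each of the other 5 libraries, and the highest of them reached 712 CPM. Of these 117 genes, 10 were among the genes called lower in winter berries. Summer replicates 2 and 3 were close to each other, with a chi-square of 1.83 per degree of freedom over 16850 genes, where sampling noise alone gives about 1. The pairs with replicate 1 gave 26.9 and 42.9, and the 3 winter pairs gave 3.32 to 13.9. Pairs in the other 10 groups gave 1.52 to 99.3 (median 14.9), and 2 of all 36 pairs lay below the 1.83. Whether summer replicates 2 and 3 came from separate berry pools cannot be told from these values. They are labelled as replicates and were kept as separate libraries. The counts without replicate 1 and with replicates 2 and 3 summed are given beside the first result.

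The defining genes of pigmented pericarp were present in all 6 libraries. The glucosyltransferase UFGT (VIT_216s0039g02230), which completes the anthocyanin, had 52.5, 49.8 and 43.2 FPKM (reads scaled by transcript length and library size) in winter berries, against 30.9, 45.7 and 43.0 FPKM in summer berries. Its adjusted p was 0.118 (edgeR), and on this scale 1 of the summer libraries lay above a winter library. MYBA2 (VIT_202s0033g00390), an activator of anthocyanin genes, had 112.0, 111.0 and 98.3 FPKM in winter berries, against 27.3, 27.6 and 26.7 FPKM in summer berries, so that the crops did not overlap, and was called higher in winter berries (log2 fold change 2.02, SE 0.47, adjusted p = 0.00119). MYBA2 thus changed with the crop beside every result below, and the part of the degree of colouring in them was not tested.

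The change with the crop was broad and went both ways. Among genes with a known name, NCED3, which sets the rate of ABA synthesis, was higher in winter berries. The difference was 3.58 on the log2 scale (SE 0.31, n = 3 libraries in each crop, edgeR). Also higher were 4 of 11 genes for phenylalanine ammonia-lyase and 5 of 8 for B-ring hydroxylases, against 4.54% of all tested genes. With each library left out in turn, 2 of these 4 and 3 of these 5 calls held. Of 24 stilbene synthases 7 were higher, against the same 4.54%, though 0 of these 7 calls held with each library left out in turn. HY5, a factor of light signalling, was lower in winter berries, with -1.76 on the same scale (SE 0.18). Also lower were 1 of 2 TIR1 genes, which encode auxin receptors, and ACO1, an enzyme of ethylene synthesis. Of all tested genes 5.83% were lower, and these single genes are not read as a result about their lists. Most of the genes that changed, however, carry no name in the files, and several groups of them are neighbours on a chromosome.

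Of 20183 genes tested, 917 were higher and 1177 were lower in winter berries, where a call needed a 2-fold change and 0.01 or less for the p-value of edgeR's quasi-likelihood test after Benjamini-Hochberg adjustment. These are 4.54% and 5.83% of the genes tested, and 10.4% in either direction. Genes higher in winter made up 43.8% of the calls. The median log2 fold change over all tested genes was -0.03, which the scaling of the libraries sets near 0 by construction. Without summer replicate 1 the counts were 853 and 1293, of which 727 and 1061 were among the genes above. With summer replicates 2 and 3 summed to 1 library they were 725 and 975, with 705 and 939 among those above. The calls that held with each of the 6 libraries left out in turn were 547 of the higher (59.7%) and 650 of the lower genes (55.2%). Nearly all the called genes had no overlap between the crops, with 903 of the 917 higher and 1146 of the 1177 lower genes free of it. Over all tested genes, 50.7% had no such overlap. Calls and overlap come from the same 6 libraries, so a lack of overlap adds no support to a call below.

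**Figure D1:**
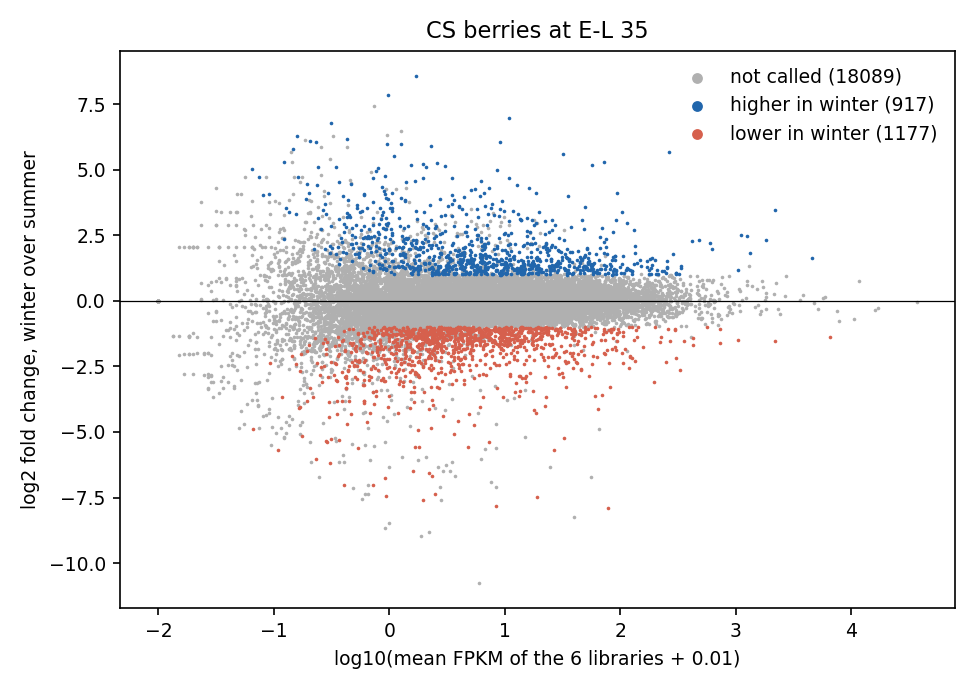
Log2 fold change of each of the 20183 tested genes, winter over summer, against its mean level in the 6 “CS” E-L 35 libraries, as log10 of FPKM + 0.01. The 917 genes higher in winter (blue) and the 1177 lower in winter (red) are spread over most of the range of levels around the genes not called (grey), whose centre the scaling sets near 0.

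Most changes were small in size. Of the genes higher in winter, 589 (64.2%) changed between 2-fold and 4-fold, 182 between 4-fold and 8-fold, 81 between 8-fold and 16-fold, and 65 by more. Of the genes lower in winter, 837 (71.1%) changed between 2-fold and 4-fold, 226 between 4-fold and 8-fold, 63 between 8-fold and 16-fold, and 51 by more. The median log2 fold change was 1.64 for the higher and -1.52 for the lower genes. Part of the largest fitted changes belonged to genes with no more than 3 counts in every library of the crop where they were low. There were 43 such genes among those higher in winter, of which 31 had a fitted change above 16-fold and 4 had one above 16-fold when computed against 3 counts per library. There were 85 among those lower in winter, of which 32 had a fitted change above 16-fold and 5 had one when computed against 3 counts per library. With these genes set against 3 counts per library, the medians were 1.61 and -1.49.

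The genes higher in winter made up 8.49, 8.41 and 8.78% of the summed FPKM of the 3 winter libraries, against 2.64, 2.59 and 2.58% in the 3 summer libraries. Those lower in winter made up 2.35, 2.28 and 2.23% in winter libraries, against 6.05, 6.98 and 6.93% in summer libraries. The 6.05% was that of summer replicate 1. In the crop where each set was high, the fewer genes higher in winter thus held a larger part of the summed level than the more numerous genes lower in winter. In the crop where they were high, 92 of the higher genes and 66 of the lower genes averaged above 100 FPKM, while 81 and 108 stayed below 1 FPKM.

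By mean level over the 6 libraries, the balance of the directions differed between bands. Among the 8508 genes with 1 to 10 FPKM, 4.72% were higher and 7.55% lower in winter berries. Among the 7274 genes with 10 to 100 FPKM, 4.19% were higher and 4.15% lower. Among the 907 genes above 100 FPKM, 6.39% were higher and 4.08% lower, and among the 3494 below 1 FPKM, 4.35% were higher and 5.61% lower. The median coding length was 1113 bases for the genes higher in winter, 924 bases for those lower and 1086 bases for all tested genes. Genes with a single exon made up 18.3% of the higher and 17.2% of the lower genes, against 13.7% of all tested genes. These shares are descriptions and were not tested.

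The largest fitted fold changes that met a mean of 1 FPKM in the higher crop and no overlap were of genes that the files give by identifier only. VIT_200s0309g00050 (chromosome Un, 22613207 to 22614880, genome 12X V2) had 32, 43 and 43 counts in winter libraries, against 0 counts in each summer library, and was at least 22.3-fold higher in winter berries (adjusted p = 0.00012, edgeR). VIT_200s1467g00010 (chromosome Un, 39212448 to 39214059) had 32, 13 and 27 counts in winter libraries, against 0 in each summer library, and was at least 13.0-fold higher (adjusted p = 0.00122). In the other direction, VIT_201s0011g02410 (chromosome 1, 2170994 to 2171522) had 0 counts in each winter library, against 28, 31 and 60 counts in summer libraries, and was at least 7.16-fold lower (adjusted p = 1.58e-05). VIT_219s0015g01660 (chromosome 19, 10312714 to 10314781) had 0 counts in each winter library, against 16, 27 and 64 in summer libraries, and was at least 6.34-fold lower (adjusted p = 0.000989). Each bound is set against 3 counts per library. The order of these 4 genes rests on fitted values, which depend on the prior count where a crop is at 0, and by the bounds they were not the largest. Among all called genes at no more than 3 counts in the lower crop, the bounds reached 53.5-fold for a gene higher and 79.8-fold for a gene lower in winter berries. A 0 at these depths limits the level and does not show that the gene is silent.

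Called genes lay on every numbered chromosome. Among the 19 numbered chromosomes the share of tested genes that were higher in winter ran between 2.75% on chromosome 15 and 7.6% on chromosome 2, where 59 of 776 were higher. Chromosome 16, which carries most of the listed stilbene synthases, had 50 of 790 higher (6.33%) and 35 lower (4.43%). The share lower in winter ran between 4.27% on chromosome 7 and 7.23% on chromosome 13. Higher genes outnumbered lower genes on chromosomes 2, 7 and 16 alone of the 19.

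Some called genes were neighbours. Runs of at least 3 neighbouring tested genes called in the same direction, with gaps of at most 100 kb, numbered 14 for the higher genes and 22 for the lower genes. They held 61 genes (7.24% of the 843 higher genes on placed chromosomes) and 72 genes (6.71% of the 1073 lower genes). These counts depended on single libraries. Without winter replicate 1 or winter replicate 2 there were 7 and 9 higher runs, and without summer replicate 2 or 3 there were 8. Without winter replicate 2 or winter replicate 3 there were 9 and 14 lower runs. Neighbours in a run can be near-identical copies that share reads, and 24.5 to 28.9% of the genes detected in a “CS” E-L 35 library had a fractional expected count, so that the split of reads among the copies is uncertain and the summed level of a run is given.

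The longest run held 10 genes within 74.4 kb of chromosome 12 (8770227 to 8844605). Their summed level was 2200, 1900 and 1480 FPKM in winter berries, against 707, 739 and 773 FPKM in summer berries. The crops did not overlap, and the log2 fold changes of the 10 genes lay between 1.13 and 1.72. Of these genes, 2 were also called higher in winter berries of “Riesling” at E-L 35. Called higher there were 46.6% of all 917 genes higher in “CS” and 5.54% of all tested genes. A run of 7 genes on chromosome 10 (14142167 to 14265706) had a summed level of 43.1, 50.6 and 62.0 FPKM in winter berries, against 2.25, 6.54 and 5.52 FPKM in summer berries, and 0 of its genes were called higher in “Riesling” at E-L 35. Of its 7 calls, 2 held in each of the 6 fits that left out a library.

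A run of 7 genes on chromosome 5 (1231861 to 1297059) reached the level of the chromosome 12 run, with 2370, 2040 and 2770 FPKM in winter berries, against 299, 442 and 448 FPKM in summer berries. Only 1 of the 7 calls held in each of the 6 fits that left out a library. The run includes VIT_205s0077g01550, which the paper lists among the PYR/PYL receptors of ABA. This gene had 96.8, 82.7 and 149.0 FPKM in winter berries, against 0.3, 3.53 and 5.49 FPKM in summer berries. Its log2 fold change was 5.19 with an adjusted p of 0.00633 (edgeR), and the lowest summer value was that of replicate 1. The call of this gene was lost in 5 of the 6 fits that left out a library. A run of 4 genes on chromosome 2 (4394176 to 4404958) had 438, 469 and 470 FPKM in winter berries, against 159, 133 and 141 FPKM in summer berries. All 4 were also called higher in winter berries of “Riesling” at E-L 35, where 46.6% of the 917 and 5.54% of all tested genes were.

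The lower genes had a pair of runs next to each other on chromosome 4. The first, 5 genes at 1213544 to 1225354, had 79.8, 80.0 and 43.2 FPKM in winter berries, against 614, 546 and 539 FPKM in summer berries. The second, 5 genes at 1237576 to 1252699, had 10.0, 8.49 and 4.31 FPKM in winter berries, against 125, 146 and 144 FPKM in summer berries. The crops were far apart in both, and all 10 genes were also called lower in winter berries of “Riesling” at E-L 35. Called lower there were 40.0% of all 1177 genes lower in “CS” and 4.48% of all tested genes. In some other lower runs, chosen here after their values were seen, a single library stood out. A run of 3 genes on chromosome 12 (18139407 to 18182259) had 63.1, 65.8 and 227.0 FPKM in winter berries, against 574, 562 and 557 FPKM in summer berries, and a run of 3 genes on chromosome 6 (6196899 to 6208290) had 85.3, 64.9 and 80.3 FPKM in winter berries, against 123, 369 and 402 FPKM in summer berries.

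**Figure D2:**
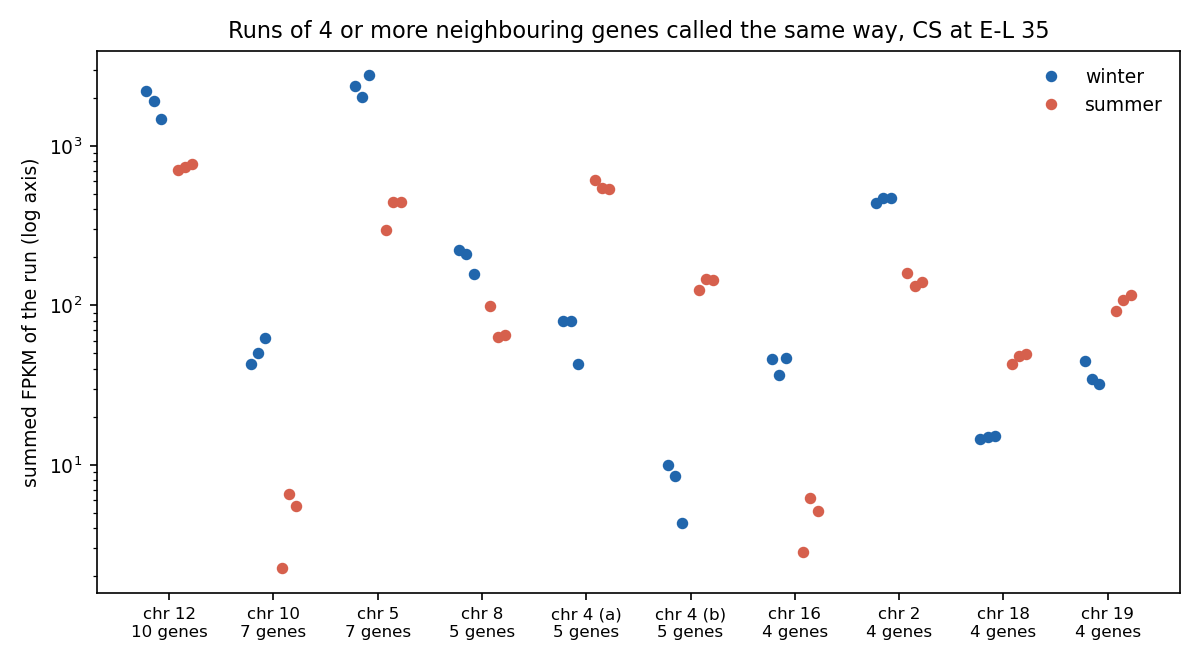
Summed FPKM per library (log axis) of the runs of 4 or more neighbouring genes called in the same direction, 3 winter points (blue) left of 3 summer points (red) for each run, named by chromosome and number of genes. Winter and summer points do not overlap in any of the 10 runs, and the runs on chromosomes 12 and 5 have the highest winter levels.

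Whether the same genes changed with the crop in other berries was read from comparisons that share no library with “CS” at E-L 35. In the “Riesling” berries of that stage, where 5.54% of all tested genes were called higher and 4.48% lower in winter berries, 427 of the 917 genes (46.6%) were called higher and 2 lower. These 427 were 38.2% of the genes called higher there. Of the 1177 genes lower in “CS”, 471 (40.0%) were called lower and 5 higher, and these 471 were 52.0% of the genes called lower there. By sign alone, 856 of the 917 (93.3%) lay above 0 and 1087 of the 1177 (92.4%) below 0, against 50.7% and 49.1% of all tested genes. The median log2 fold changes were 1.28 and -0.98, against 0.01 over all tested genes.

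At E-L 36 in “CS”, where 6.5% of all tested genes were called higher and 5.82% lower, 396 of the 917 (43.2%) were called higher and 29 lower. The 396 were 30.2% of the genes called higher there. Of the 1177, 287 (24.4%) were called lower and 34 higher, and the 287 were also 24.4% of the genes called lower there. At E-L 38 in “CS”, where 7.29% were called higher and 9.9% lower, 345 of the 917 (37.6%) were called higher and 25 lower, and 483 of the 1177 (41.0%) were called lower and 24 higher. The 345 were 23.5% and the 483 were 24.2% of the genes called in that direction there. Called in the same direction in all 4 comparisons were 95 higher and 74 lower genes. Called in none of the other 3, in either direction, were 193 of the higher genes (21.0%) and 335 of the lower genes (28.5%), which does not show that their season effect differed there.

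**Figure D3:**
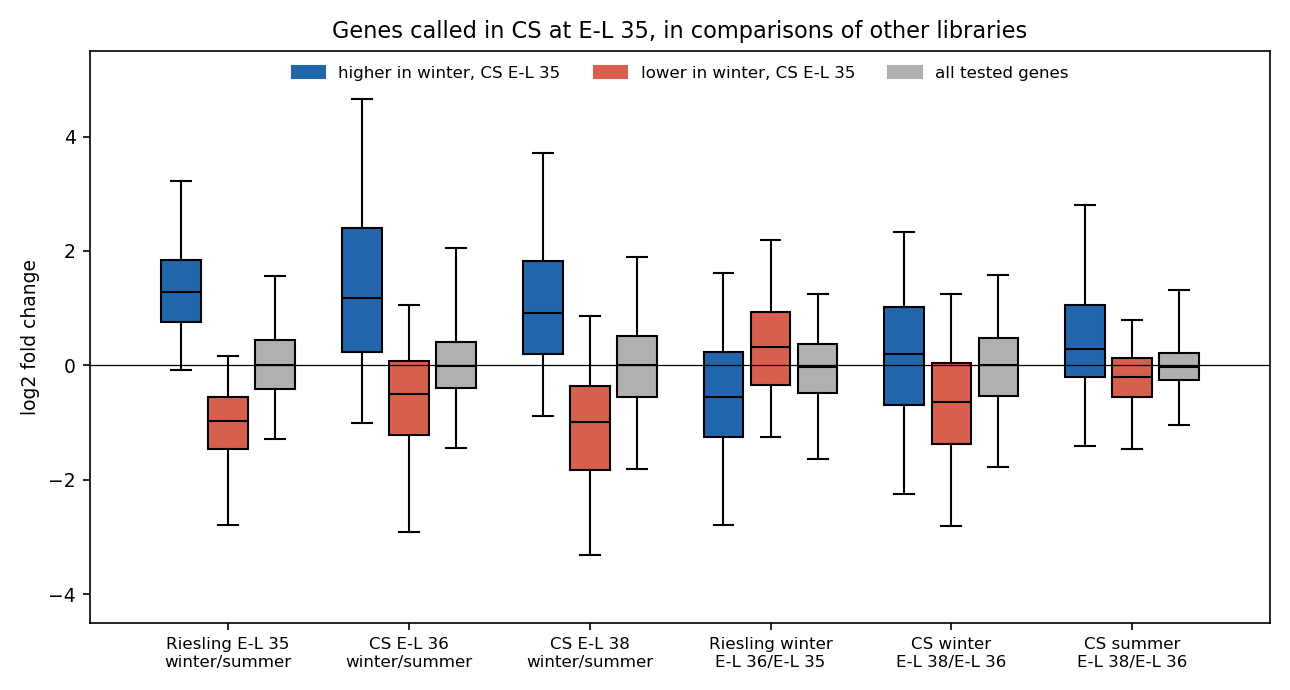
Log2 fold changes, in comparisons that use no “CS” E-L 35 library, of the 917 genes higher (blue) and the 1177 genes lower (red) in winter “CS” berries at E-L 35, and of all tested genes (grey). Boxes span the interquartile range with the median as a line, whiskers reach the 5th and 95th percentiles, and the medians in “Riesling” at E-L 35 are 1.28, -0.98 and 0.01.

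The same genes were also read along ripening. Between E-L 36 and E-L 35 of “Riesling” winter berries, where 4.13% of all tested genes were called higher and 6.01% lower at the later stage, 209 of the 917 genes higher in winter “CS” berries (22.8%) were called lower at E-L 36 and 56 (6.11%) higher. Of the 1177 genes lower in winter “CS” berries, 203 (17.2%) were called higher at E-L 36 and 51 (4.33%) lower. The medians were -0.55 and 0.32, against -0.03 over all tested genes. In this pair of stages, the medians of both sets lay on the side away from their own season effect. The step shares the winter E-L 35 libraries with the season comparison in “Riesling”, where a level high in those libraries raises the one value and lowers the other, so the 2 are not set against each other.

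Between E-L 38 and E-L 36 of “CS” winter berries, where 6.06% of all tested genes were called higher and 9.83% lower, 169 of the 917 were called higher (18.4%) and 127 lower (13.8%), with a median of 0.19. Of the 1177, 45 were called higher (3.82%) and 319 lower (27.1%), with a median of -0.64. In “CS” summer berries, where 1.12% were called higher and 1.28% lower between these stages, 52 of the 917 were called higher and 28 lower, and 14 of the 1177 were called higher and 33 lower. In both crops of “CS” the medians of the 2 sets lay on the side of their own season effect (0.28 and -0.2 in summer berries, against -0.02 over all tested genes). These steps share the E-L 36 and E-L 38 libraries with the season comparisons given for those stages. The step between E-L 35 and E-L 36 within “CS” uses the libraries that chose the genes and is not given.

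The interaction term of cultivar and season at E-L 35, tested in edgeR at the same p-value limit, called 308 of the 20183 genes (1.53%). The count depended strongly on the fit, with 7 genes called when only the E-L 35 libraries were fitted and 623 with DESeq2. Among the 917 genes higher in “CS” it called 45, of which 42 had the smaller effect in “Riesling”. Among the 1177 lower genes it called 47, of which 46 had an effect in “Riesling” that was less negative. The “CS” libraries enter both the choice of the genes and this test, so nothing is read from these directions. Summer “Riesling” replicates at E-L 35 gave a chi-square of 13.1 to 99.3 per degree of freedom between each other, and without “Riesling” summer replicate 3 the test called 549 genes. It called 179 and 187 without winter replicate 1 or 2 of “CS”, 194 and 198 without summer replicate 2 or 3 of “CS”, and 180 without summer replicate 2 of “Riesling”.

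Of the called genes, 62 (2.96%) are named in the paper, which covers enzymes and regulators of phenylpropanoids and flavonoids and genes of ABA, ethylene and auxin. The other 2032, of which 870 were higher and 1162 lower in winter berries, are given in the files by identifier only. Part of the paper's genes were chosen on these same libraries, so their directions are no independent evidence. Of 212 listed genes tested, 47 were higher and 15 lower in winter berries, where 4.54% and 5.83% of all tested genes were. The 15 lower genes are near that share. The number of higher genes was 77 with only the 6 “CS” libraries fitted, 30 without summer replicate 1 and 29 without summer replicate 3. Among the 47, 18 were also called higher in winter “Riesling” berries of the same stage, 41 in “CS” at E-L 36 and 17 in “CS” at E-L 38. Of all 917 higher genes, 46.6, 43.2 and 37.6% were called higher there, and of all tested genes 5.54, 6.5 and 7.29%. Among the 15, the counts called lower were 7, 7 and 10. Of all 1177 lower genes, 40.0, 24.4 and 41.0% were called lower there, and of all tested genes 4.48, 5.82 and 9.9%. Called in the opposite direction in any of these comparisons were 0 of the 62. Such calls were few among all called genes too, at 0.218 to 3.16% of the 917 and 0.425 to 2.89% of the 1177.

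**Figure D4:**
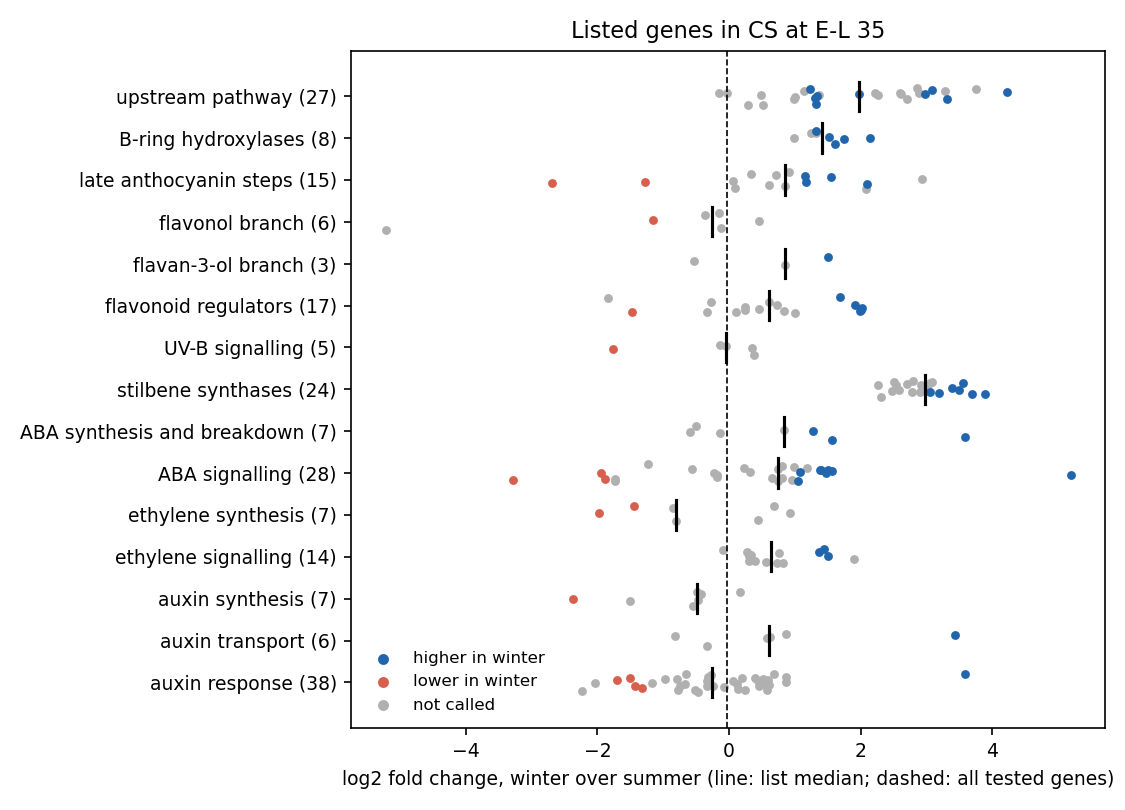
Log2 fold change, winter over summer, of the tested members of each list (number in brackets) in “CS” at E-L 35, coloured by call, with the list median as a black line and the median of all tested genes, -0.03, dashed. Stilbene synthases and the upstream pathway lie farthest to the right, with medians of 2.99 and 1.97, and the lists of ethylene and auxin synthesis have medians of -0.81 and -0.49.

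ABA is made from carotenoids through the 9-cis-epoxycarotenoid dioxygenases (NCED), which set its rate, and is broken down by ABA 8′-hydroxylases. Of 7 tested genes listed for ABA synthesis and breakdown, 3 were higher and 0 lower in winter berries, against 4.54% and 5.83% of all tested genes. Not called were NCED2 (log2 fold change 0.84, adjusted p = 0.0642, edgeR) and the other listed enzymes, all below 0. These were xanthoxin dehydrogenase (-0.5), abscisic aldehyde oxidase (-0.14) and abscisate beta-glucosidase (-0.6). The median log2 fold change of the 7 genes was 0.84. NCED3 (VIT_219s0093g00550, chromosome 19, 17645348 to 17647649) had 95.8, 87.6 and 90.5 FPKM in winter berries, against 10.4, 6.49 and 6.45 FPKM in summer berries. The crops were far apart, and the log2 fold change was 3.58 (SE 0.31, adjusted p = 1.09e-09). NCED6 (VIT_205s0051g00670) had 3.16, 2.4 and 1.6 FPKM in winter berries, against 0.97, 1.21 and 0.93 FPKM in summer berries, and its call was lost in 4 of the 6 fits that left out a library. The ABA 8′-hydroxylase VIT_202s0087g00710 had 10.3, 9.31 and 8.68 FPKM in winter berries, against 3.91, 2.57 and 3.36 FPKM in summer berries, with a log2 fold change of 1.57 (adjusted p = 0.00609), a call lost in 5 of the 6.

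ABA binds PYR/PYL receptors, which then block the phosphatases of group PP2C, so that SnRK2 kinases are freed to activate ABF transcription factors. Of 28 tested genes of this pathway, 8 were higher and 3 lower in winter berries, against 4.54% and 5.83% of all tested genes. Their median log2 fold change was 0.75. The SnRK2 gene VIT_202s0236g00130 (chromosome 2, 5557323 to 5562814) had 31.4, 29.1 and 24.5 FPKM in winter berries, against 13.0, 9.09 and 9.7 FPKM in summer berries (log2 fold change 1.38, SE 0.14, adjusted p = 1.46e-08). The PP2C gene VIT_211s0016g03180 (chromosome 11, 2548103 to 2561412) had 42.3, 43.9 and 38.5 FPKM in winter berries, against 21.2, 13.9 and 13.2 FPKM in summer berries (log2 fold change 1.4, SE 0.21, adjusted p = 6.24e-06). In both genes the winter libraries lay above every summer library, and the highest summer value was that of replicate 1. The SnRK2 genes went both ways, with 1 of 6 called higher and 1 called lower. The lower gene, VIT_207s0197g00080, had 1.91, 2.01 and 2.01 FPKM in winter berries, against 3.73, 9.73 and 10.5 FPKM in summer berries (log2 fold change -1.94, SE 0.34, adjusted p = 5.52e-05, edgeR).

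The ABF genes also went both ways. VIT_218s0001g10450 had 82.9, 82.6 and 95.7 FPKM in winter berries, against 43.2, 44.6 and 42.2 FPKM in summer berries (log2 fold change 1.08, SE 0.1, adjusted p = 4.05e-09). VIT_212s0028g01380 was low throughout, with 0.37, 0.44 and 0.38 FPKM in winter berries, against 3.01, 5.49 and 3.96 FPKM in summer berries (adjusted p = 4.46e-06). It rested on 9 counts in the winter libraries, against 177 in the summer libraries, a winter to summer ratio of 0.102 with a 95% exact interval of 0.0461 to 0.199 for counting error only.

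Ethylene is made by ACC oxidases (ACO) from the product of ACC synthase. Of 7 tested genes, 0 were higher and 2 lower in winter berries, against 4.54% and 5.83% of all tested genes. Their median log2 fold change was -0.81, and so few calls are not read as a result about the list. ACO1 (VIT_200s2086g00010, chromosome Un, 40967346 to 40968706) had 4.18, 3.63 and 5.43 FPKM in winter berries, against 12.8, 20.3 and 21.4 FPKM in summer berries (log2 fold change -1.98, SE 0.34, adjusted p = 4.12e-05). A second ACO, VIT_205s0049g00420, had 1.52, 1.34 and 1.67 FPKM in winter berries, against 2.54, 4.99 and 5.49 FPKM in summer berries. The crops did not overlap in either gene, and summer replicate 1 was the lowest of the summer libraries in both.

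Of 14 tested genes of ethylene perception and signalling, 3 were higher and 0 lower in winter berries, against 4.54% and 5.83% of all tested genes. Their median was 0.64. SIMKK (VIT_217s0000g01970), listed as a kinase of this pathway, had 45.1, 43.0 and 41.5 FPKM in winter berries, against 15.5, 16.6 and 17.4 FPKM in summer berries (log2 fold change 1.44, SE 0.25, adjusted p = 4.79e-05). The transcription factor gene ERF1/2 (VIT_216s0013g00890) had 15, 13.7 and 10.6 FPKM in winter berries, against 4.89, 5.1 and 4.32 FPKM in summer berries (log2 fold change 1.51, adjusted p = 0.000853). The receptor EIN4 (VIT_206s0004g05240) was near the limit on both sides, with 1.81, 1.1 and 0.8 FPKM in winter berries, against 0.55, 0.32 and 0.55 FPKM in summer berries, and its call was lost in 5 of the 6 fits that left out a library.

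Auxin is made by TAR aminotransferases and YUCCA enzymes, enters cells through AUX1 carriers and is sensed by the TIR1 receptor, which marks AUX/IAA repressors for breakdown. Of 7 tested synthesis genes, 0 were higher and 1 lower in winter berries, against 4.54% and 5.83% of all tested genes. So few calls are not read as a result about the list. The lower gene was TAR1 (VIT_200s0225g00230), with 26.7, 30.2 and 43.4 FPKM in winter berries, against 198.0, 169.0 and 169.0 FPKM in summer berries (log2 fold change -2.37, SE 0.69, adjusted p = 0.00781). The crops did not overlap, yet the call was lost in all 6 fits that left out a library. Of 6 tested AUX1 carriers, 1 was higher, VIT_206s0061g01210 (chromosome 6, 19000310 to 19004400), with 3.79, 3.73 and 1.86 FPKM in winter berries, against 0.33, 0.15 and 0.33 FPKM in summer berries (log2 fold change 3.43, SE 0.44, adjusted p = 7.53e-07).

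Of 38 tested genes of auxin response, 1 was higher and 4 lower in winter berries, with a median of -0.26. With 4.54% and 5.83% of all tested genes called, such small counts are not read as a result about the list. The TIR1 gene VIT_200s0181g00040 had 4.25, 4.47 and 7.27 FPKM in winter berries, against 11.2, 15.9 and 14.8 FPKM in summer berries (log2 fold change -1.32, SE 0.16, adjusted p = 2.65e-07), while the other TIR1 gene, VIT_207s0104g01320, had a log2 fold change of 0.06 (adjusted p = 0.807). The repressor gene AUX/IAA VIT_211s0016g03540 had 5.94, 3.8 and 4.45 FPKM in winter berries, against 8.04, 18.1 and 16.8 FPKM in summer berries (log2 fold change -1.51, adjusted p = 9.99e-07), with summer replicate 1 nearest to the winter libraries. SAUR genes, short early targets of auxin, went both ways. VIT_204s0023g03230 had 8.01, 7.51 and 8.7 FPKM in winter berries, against 23.8, 27.8 and 30.0 FPKM in summer berries (adjusted p = 5.03e-05). VIT_209s0002g00650 (chromosome 9, 445796 to 446624) had 8.78, 8.34 and 4.9 FPKM in winter berries, against 0.66, 0.66 and 0.56 FPKM in summer berries (log2 fold change 3.59, SE 0.48, adjusted p = 1.66e-06).

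**Figure D5:**
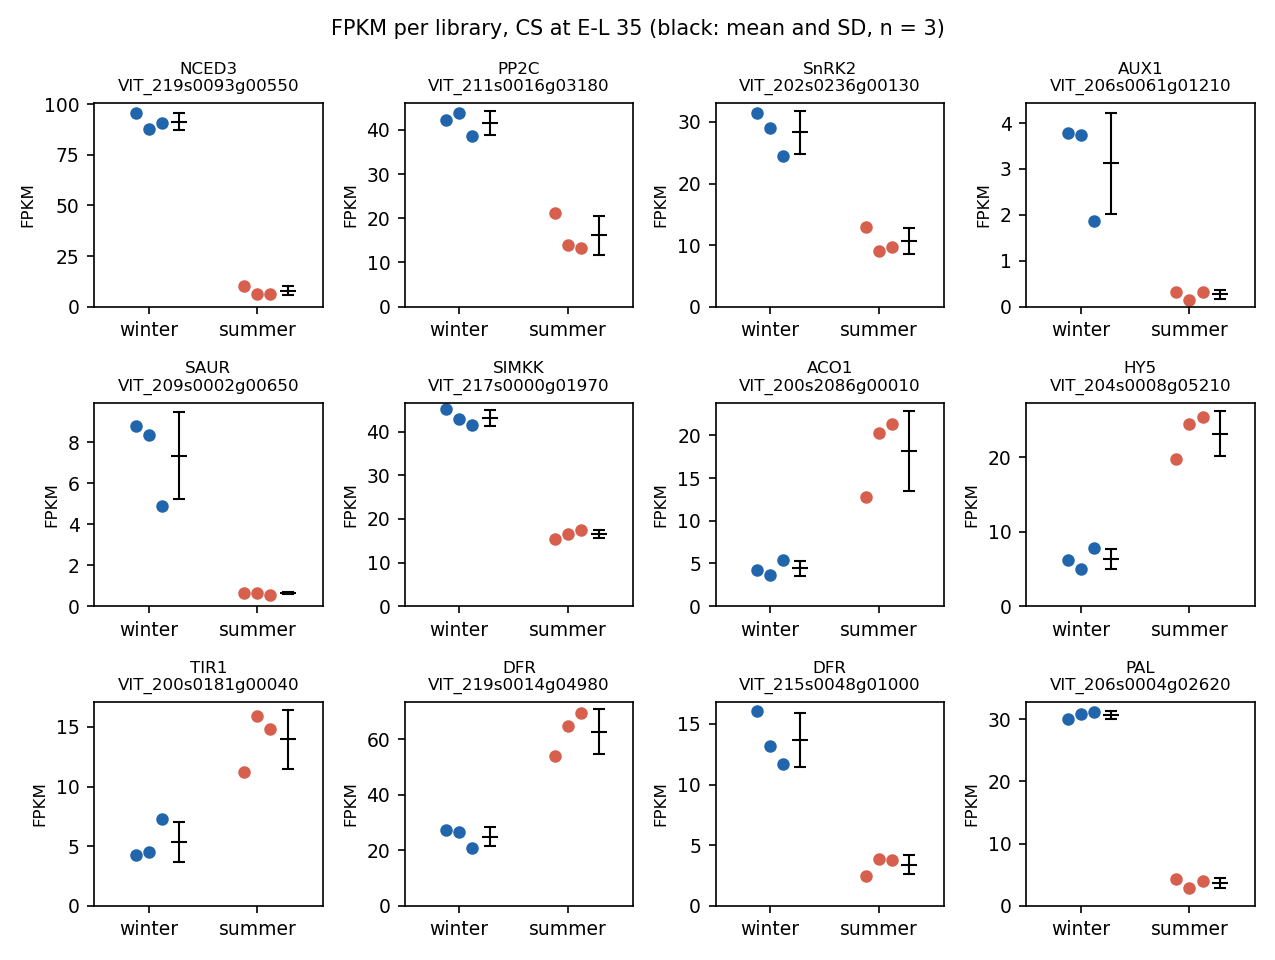
FPKM of 12 named genes in each “CS” E-L 35 library, winter (blue) left of summer (red), with the mean and SD in black (n = 3). NCED3, PP2C, SnRK2 VIT_202s0236g00130, AUX1, the SAUR gene, SIMKK, DFR VIT_215s0048g01000 and PAL lie higher in all 3 winter libraries, and ACO1, HY5, TIR1 and DFR VIT_219s0014g04980 lie lower. Another SnRK2 gene, not drawn here, was called lower.

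HY5 is a transcription factor of light signalling that acts after the UV-B receptor. It was the 1 called gene of 5 tested UV-B genes, where 10.4% of all tested genes were called in either direction. The median log2 fold change of the 5 was -0.04, and 1 call is not read as a result about the list. HY5 (VIT_204s0008g05210, chromosome 4, 4716002 to 4719745) had 6.17, 5.02 and 7.76 FPKM in winter berries, against 19.7, 24.4 and 25.4 FPKM in summer berries (log2 fold change -1.76, SE 0.18, adjusted p = 2.33e-08). Its log2 fold change was -1.96 in “Riesling” of the same stage, -2.52 in “CS” at E-L 36 and -2.25 in “CS” at E-L 38.

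Phenylalanine ammonia-lyase (PAL) opens the phenylpropanoid pathway, C4H and 4CL carry it to coumaroyl-CoA, and chalcone synthase and isomerase (CHI) lead it to flavonoids. Of 27 tested genes of these upstream steps, 9 were higher and 0 lower in winter berries, against 4.54% and 5.83% of all tested genes. Among the 9 calls, 5 held in each of the 6 fits that left out a library. All 11 PAL genes lay above 0, between 1.97 and 4.22 on the log2 scale. PAL VIT_206s0004g02620 (chromosome 6, 3233332 to 3237096) had 30.0, 30.8 and 31.2 FPKM in winter berries, against 4.35, 2.77 and 3.93 FPKM in summer berries (log2 fold change 3.08, SE 0.52, adjusted p = 3.88e-05). C4H VIT_211s0065g00350 had 35.7, 39.4 and 23.9 FPKM in winter berries, against 3.71, 4.35 and 4.94 FPKM in summer berries (adjusted p = 0.000989), and it overlaps a gene model on the other strand. 4CL VIT_216s0050g00390 had 72.5, 81.5 and 78.4 FPKM in winter berries, against 46.1, 28 and 27.1 FPKM in summer berries (adjusted p = 5.98e-05). The crops did not overlap in these 3 genes.

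Stilbene synthases (STS) take the same precursor as chalcone synthase to make resveratrol. Of 24 tested genes, 7 were higher and 0 lower in winter berries, against 4.54% and 5.83% of all tested genes. All 24 fold changes were above 0, between 2.26 and 3.89 on the log2 scale. The called gene with the smallest p, VIT_216s0100g00800, had 12.4, 8.76 and 10.1 FPKM in winter berries, against 0.73, 1.64 and 0.69 FPKM in summer berries (SE of the log2 fold change 0.9, adjusted p = 0.00295). Its call was lost in 2 of the 6 fits that left out a library, and those of the other 3 named members in 3 or 4. The listed STS genes are near-identical copies, all but 1 on chromosome 16 and 5 of them in called runs, so the split of reads among them is uncertain. The 1 on chromosome 10, VIT_210s0042g00920, starts at 14298956, beyond the end of the run of 7 unnamed genes there (14142167 to 14265706). What those 7 genes encode is not given in the files.

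Flavonoid 3′-hydroxylase (F3′H) and flavonoid 3′,5′-hydroxylase (F3′5′H) set the pattern of the B ring and with it the hue of the anthocyanins. Of 8 tested genes, 5 were higher and 0 lower in winter berries, against 4.54% and 5.83% of all tested genes. Among the 5 calls, 3 held in each of the 6 fits that left out a library. All 8 log2 fold changes lay above 0, between 0.99 and 2.15. F3′H VIT_203s0063g01690 had 17.7, 17.3 and 19.1 FPKM in winter berries, against 4.08, 3.88 and 4.64 FPKM in summer berries (adjusted p = 3.92e-09). F3′5′H VIT_206s0009g02830 had 54.8, 55.2 and 52.0 FPKM in winter berries, against 16.9, 18.9 and 19.1 FPKM in summer berries (adjusted p = 0.00133). The winter libraries lay above the summer libraries in both, and in “Riesling” the log2 fold changes at E-L 35 were 1.92 for this F3′H and 0.53 (SE 0.91, adjusted p = 0.677) for this F3′5′H. The difference from “CS” for this F3′5′H, -1.08 on the log2 scale (SE 1.02, adjusted p = 0.599 in edgeR), did not pass the test. The paper gives very low F3′5′H transcript levels in “Riesling”, and with an SE of this size the difference is left undecided.

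Dihydroflavonol reductase (DFR) starts the late anthocyanin steps. Their 15 tested genes included 4 higher and 2 lower in winter berries, against 4.54% and 5.83% of all tested genes. The DFR genes split. VIT_215s0048g01000 had 16.1, 13.2 and 11.7 FPKM in winter berries, against 2.46, 3.85 and 3.8 FPKM in summer berries (log2 fold change 2.09, SE 0.27, adjusted p = 1.03e-06). VIT_218s0001g12800 had 78.1, 83.8 and 95 FPKM in winter berries, against 41.1, 38.3 and 39.4 FPKM in summer berries (adjusted p = 2.1e-06). VIT_219s0014g04980 had 27.1, 26.4 and 20.9 FPKM in winter berries, against 53.8, 64.7 and 69.5 FPKM in summer berries (log2 fold change -1.28, SE 0.17, adjusted p = 1.51e-06), and the weakly expressed VIT_202s0025g01260 was also lower (adjusted p = 0.000191). None of these 4 DFR genes had winter and summer libraries that overlapped.

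In the side branches, the flavonol synthase FLS5 (VIT_218s0001g03430) had 5.24, 5.78 and 6.22 FPKM in winter berries, against 15.8, 10.8 and 12.3 FPKM in summer berries (log2 fold change -1.15, adjusted p = 3.83e-05). Its call was lost in 1 of the 6 fits that left out a library. FLS5 was the 1 called gene of the 6 tested in the flavonol branch, where 10.4% of all tested genes were called in either direction. This 1 call is not read as a result about the branch. The anthocyanidin reductase ANR (VIT_200s0361g00040), which leads to tannins, had 1.37, 1.78 and 0.79 FPKM in winter berries, against 0.38, 0.76 and 0.37 FPKM in summer berries (adjusted p = 0.0022), with little between the lowest winter and the highest summer library, and its call was lost in 3 of the 6 fits that left out a library.

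Of 17 tested regulators of these pathways, 5 were higher and 1 lower in winter berries, against 4.54% and 5.83% of all tested genes. Their median log2 fold change was 0.61. The light-related factor bZIPC22 (VIT_207s0005g01450) had 81.7, 80.3 and 60.6 FPKM in winter berries, against 29.4, 21.3 and 19.9 FPKM in summer berries (log2 fold change 1.69, SE 0.26, adjusted p = 8.39e-06). MYB15 (VIT_205s0049g01020), an activator of stilbene synthases, had 48.3, 51.1 and 37.5 FPKM in winter berries, against 12.4, 11.6 and 13.5 FPKM in summer berries (adjusted p = 2.95e-05). MYBA3 (VIT_202s0033g00450), a neighbour of MYBA2, had 43.8, 33.8 and 30.3 FPKM in winter berries, against 9.56, 9.22 and 9.16 FPKM in summer berries (adjusted p = 0.000237). The tannin regulator MYBPA1 (VIT_215s0046g00170) had 2.21, 3.61 and 1.97 FPKM in winter berries, against 8.81, 6.83 and 6.63 FPKM in summer berries (log2 fold change -1.48, adjusted p = 0.000988). Its call was lost in 1 of the 6 fits that left out a library.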

How the data were processed

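RNA of deseeded berries was sequenced by the authors as 50-bp single reads and aligned to the grapevine genome 12X V2 with up to 2 mismatches. The submitters' processing notes name Bowtie. The program that counted reads, and whether it used strand, are not given in the sources used here. Per library the authors deposited an expected count per gene (not normalized) and an FPKM value, which they computed from the longest transcript. Genes without a row in a library were set to 0. A table of the whole series with 36 numbered columns matched to no label was not used. The deposited gene models gave coordinates. The identifiers matched 0 rows of the reference table of gene names, so functional lists by description, and markers of seed and vascular tissue, are not analysed here.

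Expected counts were rounded and 20183 of 28441 genes kept by filterByExpr of edgeR 4.0.16 in R 4.3.3, then fitted over all 36 libraries (12 conditions) with TMM and the quasi-likelihood test, Benjamini-Hochberg adjusted over the genes tested. The SE is the size of the log2 fold change over the square root of F. Calls needed a p of 0.01 or less after adjustment and a 2-fold change or more, as in the study. The study used DESeq2. Alternatives were DESeq2 1.42.0, limma 3.58.1 on log2(FPKM + 1) or log2(FPKM + 0.1), other scaling and filters, thinning to the smallest library total, a replicate block, only the libraries compared, and each library left out. Fitting was tested on simulated data. Summer replicates 2 and 3 were summed as an alternative chosen after seeing the data. Chi-squares between replicates used genes with at least 50 counts in a pair. Named were up to 4 called members of each list with the smallest p, and the 2 largest changes in each direction with a mean of at least 1 FPKM and no overlap, 45 genes in all. A receptor gene in a run, marker genes and some further members of the lists were named beside them. Members and lists were chosen with earlier results of these data known. The labels give no batch. FPKM carries no test here.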

Additional observations from a re-analysis of the deposited data

Results flagged for a closer look

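For 3 of the named genes the season effect at E-L 35 differed between “Riesling” and “CS” at 0.01 or less for the adjusted p of the edgeR interaction term. These genes were named because they were called in “CS”, whose libraries also enter this test, and the term called 7 genes in place of 308 when only the E-L 35 libraries were fitted. The difference in log2 fold change, “Riesling” minus “CS”, was -0.88 for the ABF gene VIT_218s0001g10450 (SE 0.14, adjusted p = 0.000386). In “Riesling” this gene had 82.75, 72.21 and 76.21 FPKM in winter berries, against 57.28, 61.73 and 90.56 FPKM in summer berries, so that the crops overlapped there through summer replicate 3. The difference was -3.61 for the SAUR gene VIT_209s0002g00650 (SE 0.74, adjusted p = 0.00413), which had 0.12, 2.03 and 1.57 FPKM in winter “Riesling” berries, against 1.39, 1.67 and 0.59 FPKM in summer “Riesling” berries. It was -10.09 for VIT_200s1467g00010 (adjusted p = 0.00986), with 0.36, 0.0 and 0.29 FPKM in winter “Riesling” berries, against 1.5, 0.0 and 1.72 FPKM in summer “Riesling” berries. As all “CS” summer libraries were at 0 for this gene, the size of its difference depends on the prior count of the fit and is no bound.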

How the results depend on the processing

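Against 917 higher and 1177 lower genes, limma on log2(FPKM + 1) called 593 and 755, or 601 and 762 with at least 1 FPKM in 3 libraries, and a p limit of 0.05 after adjustment with no fold limit gave 3551 and 4006. DESeq2 called 1033 and 1169. The 308 genes whose season effect differed between the cultivars became 967 at that p limit, 623 with DESeq2, 517 and 481 with limma as above, 7 with only the E-L 35 libraries, and 198 with summer replicates 2 and 3 of “CS” summed, which also left 7 runs of higher genes in place of 14. With only the 6 “CS” libraries, 77 listed genes were higher in place of 47. The cause was not tested. With a library left out, the ranges were 680 to 853 higher, 920 to 1293 lower and 179 to 549 differing genes, 29 to 37 listed genes higher and 13 to 17 lower, 7 to 11 higher runs and 9 to 27 lower runs. Genes also called in the same direction elsewhere numbered 348 to 407 and 387 to 486 in “Riesling” at E-L 35, 303 to 369 and 243 to 279 in “CS” at E-L 36, and 277 to 342 and 410 to 503 in “CS” at E-L 38, and those called the other way in “Riesling” winter E-L 36 against E-L 35 numbered 153 to 201 and 173 to 203. The other alternatives stayed within 1.5 times of these counts. Same-numbered winter and summer libraries did not deviate together (r of 0.05, -0.1 and 0.1), and a replicate block gave 974 higher and 1110 lower genes and 253 differing genes. No gene of the 45 named by rule reversed its direction under these settings. With each library left out in turn, 33 of the 45 kept their call, and DESeq2 and RLE size factors kept all 45. Without a genome or descriptions of the genes, the 2032 genes called outside the paper's lists could not be named by function. The deeper summer libraries detect weaker genes, and thinning to equal totals gave 850 and 1006.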
